A study of Mus musculus with 9 samples.

Results

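Open chromatin of ER+ luminal cells was compared with that of basal cells in the mouse mammary gland. The comparison uses 6 of the 9 libraries of the study, 3 of ER+ luminal and 3 of basal cells, paired by stage. The stages are puberty, adulthood and mid pregnancy, with 1 library for each cell type at each stage, and all 124860 regions of the deposited table were compared. The other 3 libraries, of ER- luminal cells at the same stages, were kept out of the test and were used only to see where they lie. Per the labels, all libraries came from sorted mammary gland cells of one genotype, ERrtTA/TetOCre/rosaYFP. In such mice a doxycycline-dependent activator turns on Cre recombinase, which switches on a fluorescent reporter, and the activator is named after the oestrogen receptor (ER). Ages, the number or pooling of animals, any doxycycline treatment and the markers that set the sorting gates are not given in the sources used here.

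Mammary ducts have an outer layer of basal, or myoepithelial, cells, which contract to eject milk. The inner layer of luminal cells holds ER+ cells, which sense oestrogen and pass the signal on to their neighbours, and ER- cells, from which milk-producing alveolar cells arise. In ATAC-seq the Tn5 transposase cuts and tags DNA that is not packed away, so that active promoters and enhancers gather more reads than closed chromatin does. Regions that are open in one cell type and closed in another are for the most part enhancers, which carry much of a cell's identity.

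The 6 libraries held 2186941 to 11328189 reads in regions. Both pregnancy libraries were shallow, with 2186941 reads in basal and 2641254 in ER+ luminal cells, against 6679907 to 11328189 in the other 4. Values are normalised read counts, and 1 read was worth 0.526 to 2.2 units depending on the library. The regions carry running numbers without coordinates or gene names, so regions are named by number, no sequence is shown, and the labelled cell types were not checked against marker genes. In a sorted population, fewer cells with a region open and less opening in each cell cannot be told apart.

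ER+ luminal and basal chromatin differed in both directions, with similar numbers of regions in the fit of all 3 pairs. Over regions with reads in all libraries, the median ratio to the geometric mean of the libraries was 1.02 in each library. The deposited values are thus centred alike, so a general gain or loss of openness in either cell type could not show. In ER+ luminal cells 17699 regions, or 14.2% of all, were more accessible than in basal cells, and 19717 regions, or 15.8%, were less accessible (limma on log2(normalised read count + 1) with stage as a block, Benjamini-Hochberg adjusted p under 0.05). The median log2 difference was 2.09 in the regions called higher and -2.35 in those called lower. On this scale losses reached further than gains, to an extent that depended on the pseudocount. At the same regions the medians were 1.68 and -1.78 with a pseudocount of 4, and 2.23 and -2.64 with 0.25. The most extreme differences were counted with the pseudocount of 1 alone. A mean log2 difference of 4 or more separated 688 of the regions called lower, which is 3.49% of them, and 24 of the regions called higher, which is 0.136%. The most extreme means were -5.93 and 4.46. The numbers of calls depended on the stages used. Without the puberty pair there were 4752 called higher and 8550 called lower, without the adult pair 4224 and 7140, and without the pregnancy pair 32385 and 32021. The p-values set the mean difference against the departure of the 3 pairs from 1 common difference, with 2 residual degrees of freedom and 16.1 more borrowed across regions, and not against a spread between animals.

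**Figure D1:**
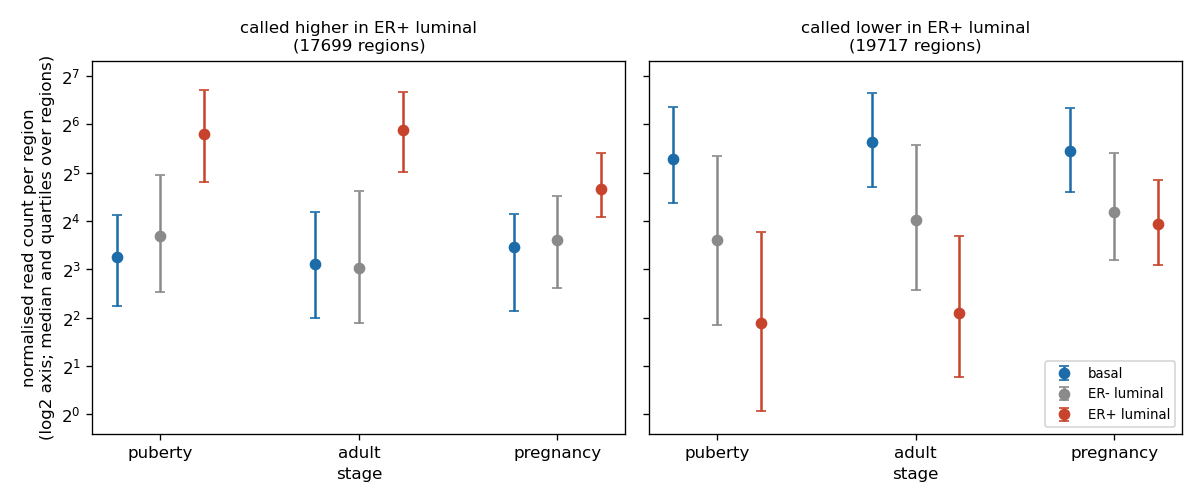
Median normalised read count per region on a log2 axis, with quartiles over regions as bars, in each of the 9 libraries, for the 17699 regions called higher (left) and the 19717 called lower (right) in ER+ luminal cells. At the regions called lower, the ER+ luminal median is 3.68 at puberty, 4.28 in adults and 15.3 in pregnancy, while the basal median stays between 38.8 and 49.7.

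In the regions called higher, the median value in ER+ luminal cells was 55.7 at puberty, 59.0 in adults and 25.4 in pregnancy. The basal medians there were 9.50, 8.68 and 11. In the regions called lower, the basal medians at the same stages were 38.8, 49.7 and 44.0. Those of ER+ luminal cells were 3.68, 4.28 and 15.3. These regions were chosen on these values, so the medians are a description and support no statement on which cell type carries a stage difference. From the mean of the earlier stages to pregnancy, ER+ luminal cells had a median log2 change of -1.02 at the regions called higher and 1.37 at those called lower. In basal cells it was 0.06 and -0.08. Both pregnancy libraries had a narrower range of values over all regions. The 10th percentile was 5.09 units in ER+ luminal and 4.40 in basal cells, against 1.58 and 3.17 at puberty and 1.71 and 2.37 in adults. The 90th percentile divided by the 10th was 16.3 and 23.0 in pregnancy, against 88.3 and 39.8 at puberty and 73.0 and 59.0 in adults. The part of depth, of this range or of other cells in these libraries was not tested.

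Over all regions, adults showed the widest gap between the cell types and pregnancy the narrowest. In adults 22364 regions (17.9%) were at least 4-fold higher in ER+ luminal cells and 20599 (16.5%) at least 4-fold lower. At puberty the numbers were 17382 (13.9%) higher and 19402 (15.5%) lower. In pregnancy they were 7499 (6.01%) and 7139 (5.72%). The SD of the log2 difference over regions was 1.86 at puberty, 2.01 in adults and 1.28 in pregnancy, and the share of regions within 2-fold was 42.3%, 39.4% and 61.6%. In these values, which are centred alike, the split between the directions was near even and turned with the scaling. Of the regions past 4-fold, 47.3% were higher in ER+ luminal cells at puberty, 52.1% in adults and 51.2% in pregnancy, against 50.3%, 49.5% and 39.8% with a pseudocount of 4 and 49.2%, 49.6% and 45.9% after quantile normalization. Each stage has 1 pair, so differences between stages have no replicate check and were not tested. With every library thinned to the depth of the shallowest, the regions at least 4-fold apart in either direction numbered 41680, 47131 and 15135 at puberty, in adults and in pregnancy. They numbered 21875, 26992 and 5674 with a pseudocount of 4 and 32238, 35664 and 20155 after quantile normalization, against 36784, 42963 and 14638 in the values as deposited. Pregnancy had the fewest and adults the most under each of these.

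**Figure D2:**
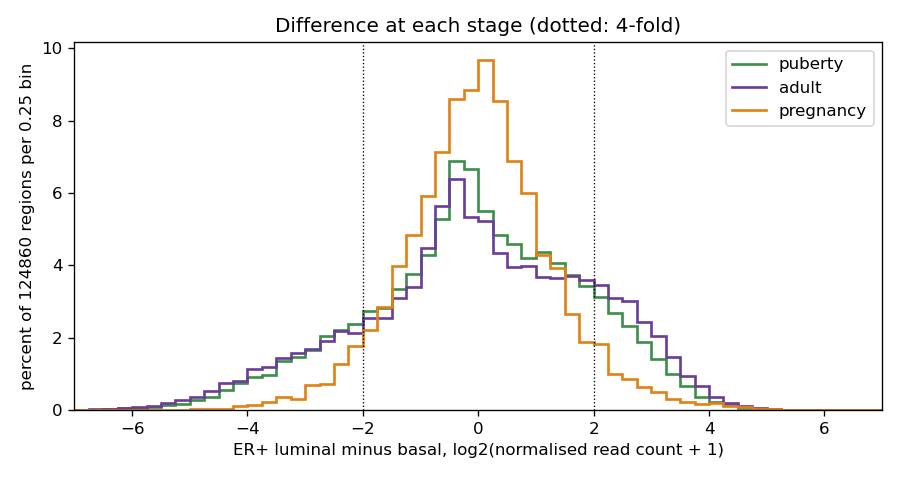
Distribution over all 124860 regions of the ER+ luminal minus basal difference in log2(normalised read count + 1), as percent of regions per bin, with 1 line per stage and dotted lines at 4-fold. The pregnancy line is the narrowest, with an SD of 1.28 against 1.86 at puberty and 2.01 in adults.

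Regions set apart at 2 stages were mostly set apart in the same direction at the left-out stage. Taken across regions (not independent replicates), the puberty and adult differences had a Pearson r of 0.807, and those in pregnancy had an r of 0.493 with puberty and 0.532 with adults. No library enters 2 of these differences, but the libraries of a cell type may share a sorting gate, which the sources used here do not give. Regions past 4-fold at 2 stages were then read at the left-out stage, which had no part in their choice. At the adult stage, the 2673 regions higher at puberty and in pregnancy had a median log2 difference of 2.68, and 99% kept the sign, against 49.9% of all regions with that sign. The 4306 regions lower at those stages had a median of -3.50, and 99.3% kept the sign. At puberty the 3865 higher regions had a median of 2.13 with 93.5% of the same sign, and the 4485 lower ones -3.32 with 99%. In pregnancy the 11020 higher regions had a median of 1.02 with 83.1% of the same sign, and the 13848 lower ones -1.41 with 90.4%. At each left-out stage the regions lower in ER+ luminal cells at the other stages kept a larger median gap than the higher ones. In pregnancy 18.8% of the higher and 27.2% of the lower regions were still at least 4-fold apart, against 77.7% and 87.4% in adults.

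Most regions past 4-fold were so at puberty, in adults or at both. At all 3 stages 2076 regions were at least 4-fold higher and 3763 at least 4-fold lower in ER+ luminal cells, or 1.66% and 3.01% of all regions. At puberty and in adults but not in pregnancy there were 8944 higher and 10085 lower regions. The 8944 had ER+ luminal medians of 55.2, 56.4 and 18.6 at puberty, in adults and in pregnancy beside basal medians of 7.12, 7.10 and 11. The 10085 had ER+ luminal medians of 2.1, 2.57 and 13.6 beside basal medians of 27.7, 34.7 and 28.6. In adults alone 9555 regions were past 4-fold higher and 6029 past 4-fold lower, with median log2 differences at puberty of 1.15 and -1.31 in the same direction. At the 9555 the adult median was 23.9 for ER+ luminal cells and 3.16, or 4 reads, for basal cells. In pregnancy alone 3037 regions were past 4-fold higher and 2111 past 4-fold lower. At the 3037, the pregnancy median was 13.6 for ER+ luminal cells and 2.2, the worth of 1 read, for basal cells.

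A few regions show the extremes sample by sample, 2 in each direction. They were picked by a rule that took the region whose smallest stage difference was largest, and the brightest region with no read in the 3 libraries of the closed cell type. The differences and counting intervals given for them come from the same values as the choice and make no allowance for it. In region merged70260 the ER+ luminal values were 106 at puberty, 78.7 in adults and 49.2 in pregnancy. The basal values were 6.33, 3.95 and 2.2, from 8, 5 and 1 reads. The groups do not overlap, a trait the rule favours. The log2 difference was 3.87, 4.01 and 3.97. Both cell types had their lowest value in pregnancy, but with 1 basal read a fall in basal cells is not shown. ER+ luminal cells averaged 78.0 ± 28.5 and basal cells 4.16 ± 2.07 (SD over n = 3 stages), a log2 difference of 3.95 (SE 0.54, limma adjusted p = 0.000156). ER- luminal cells lay with basal cells there, at 7.17, 5.20 and 0, the last from no read.

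Region merged1526 was open in ER+ luminal cells and had no read in the basal libraries. The ER+ luminal values were 17.4, 20.5 and 10.2 at puberty, in adults and in pregnancy, from 33, 24 and 6 reads. An exact 95% counting interval of the ratio begins at 13.5-fold higher in ER+ luminal cells (SE 0.77 on the log2 scale, 3 pairs, limma adjusted p = 0.00125). The ER- luminal values were 3.58, 5.20 and 1.52, from 5, 7 and 1 reads. A small signal was thus present there at puberty and in adults, while 1 read in pregnancy does not show one.

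In the other direction region merged31512 stood furthest apart at its least different stage. The basal values were 67.3, 77.3 and 77.0 at puberty, in adults and in pregnancy. In ER+ luminal cells they were 0, 0.855 and 0, from 1 read in all. Reads were 267 times as many in basal cells after scaling, with an exact 95% counting interval of 47.5 to 10607 (log2 difference -5.93, SE 0.65, 3 pairs, limma adjusted p = 5.9e-05). Its stage differences of -6.09, -5.40 and -6.28 did not shrink in pregnancy, unlike the median of the regions called lower, a trait the rule favours. ER- luminal cells had 2.15, 10.4 and 10.6, between the other types and far below basal cells. In region merged80293 the basal values were 48.3, 35.5 and 15.4, from 61, 45 and 7 reads, and none of the 3 ER+ luminal libraries had a read. The same kind of interval begins at 37.0-fold lower in ER+ luminal cells (SE 0.74 on the log2 scale, 3 pairs, limma adjusted p = 0.000244). The ER- luminal values of 4.30, 5.20 and 7.58 were low at the 3 stages.

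**Figure D3:**
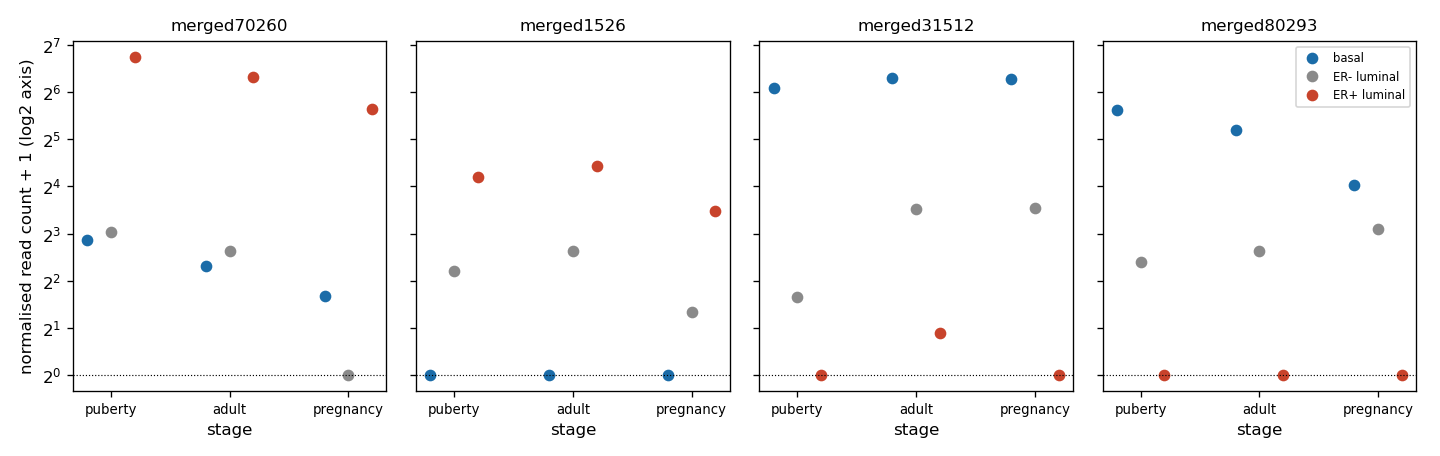
Normalised read count plus 1 on a log2 axis in each of the 9 libraries for regions merged70260 and merged1526, higher in ER+ luminal cells, and merged31512 and merged80293, lower in them, with 1 point per library and a dotted line at no read. Basal and ER+ luminal points do not overlap in any of the 4 regions, a trait the rule for picking them favours. The ER- luminal points are at most 10.6 units.

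All-or-none regions in the strict sense were rare. With no read in the 3 libraries of one cell type and at least 10 reads in each library of the other, 2 regions were open in ER+ luminal cells alone and 4 in basal cells alone. In the pregnancy libraries 10 reads are worth 22 units in basal and 17.0 in ER+ luminal cells, against 5.26 to 8.55 at puberty and in adults. The part of this in the counts was not tested. Allowing up to 3 reads in each closed library, a limit chosen after seeing the data, gave 210 regions open in ER+ luminal and 559 open in basal cells. These 559 had ER+ luminal medians of 0.526, 0.855 and 3.39, or 1, 1 and 2 reads, beside basal medians of 19.8, 24.5 and 30.8. Regions open in basal cells with almost no ER+ luminal signal thus outnumbered the reverse at both limits. Over 2 stages the strict counts were 41 open in ER+ luminal and 337 open in basal cells without pregnancy and 12 and 24 without adults, and without puberty the order turned, with 23 and 16.

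Within a stage, complete absence in one library was more common. At puberty 1806 regions had at least 10 basal reads and no ER+ luminal read, and 752 the reverse. In adults there were 2143 and 971. In pregnancy the order turned, with 117 regions open in basal and 423 in ER+ luminal cells. The basal library is the shallower of that pair, and 2.7% of all regions had no read in it, against 1.42% in the ER+ luminal one. At equal depth the numbers were 2638 and 1016 at puberty, 2707 and 2067 in adults, and 180 and 264 in pregnancy. Absence at puberty held at all stages in few of these regions. Of the 1806 regions without an ER+ luminal read at puberty, 32 had none at the other stages either, and the medians there were 1.71 units in adults and 6.78 in pregnancy. Of the 752 without a basal read at puberty, 21 had none at the other stages. Over all regions, 3.01% had no read in the adult and 1.42% in the pregnancy library of ER+ luminal cells. For basal cells the shares were 1.74% and 2.7%. The share of all regions with no read in both libraries was not counted.

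ER- luminal cells lay near basal cells at the regions more open in ER+ luminal cells, and between the 2 types at the regions less open in them. Position was measured on a line from the basal mean (0) to the ER+ luminal mean (1) on the log2 scale. The median was 0.16 over the 17699 regions called higher, with quartiles of -0.09 and 0.45. Over the 19717 regions called lower it was 0.60, with quartiles of 0.29 and 0.85. ER- luminal cells were nearer to basal cells at 77.9% of the former and 40.7% of the latter. The ER- luminal medians were 12.9, 8.17 and 12.1 at the regions called higher, and 12.2, 16.3 and 18.2 at those called lower, at puberty, in adults and in pregnancy. The calls did not use the ER- luminal libraries, but both ends of the line come from libraries that did, and the difference between the directions is a description with no test.

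**Figure D4:**
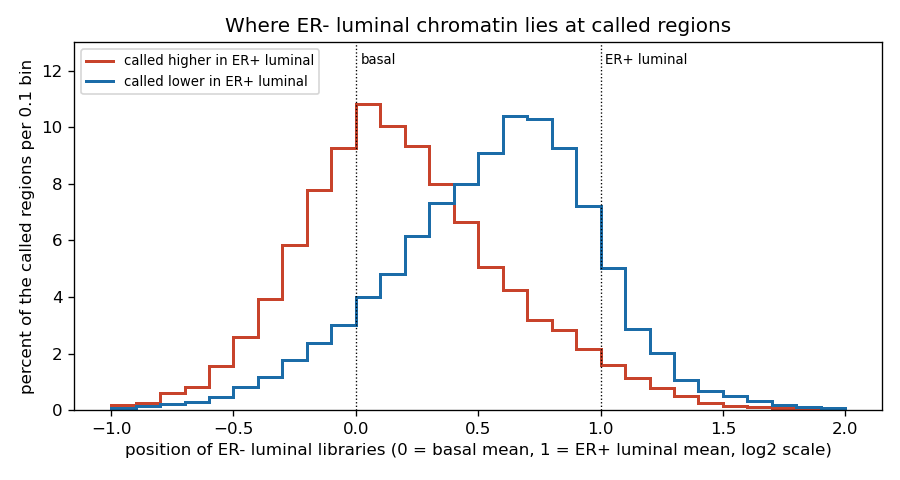
Distribution of the ER- luminal position at called regions, as percent of the set per bin, where 0 is the basal mean and 1 the ER+ luminal mean on the log2 scale; 53 regions called higher and 63 called lower lie beyond the plotted range. The regions called higher peak near 0, with a median of 0.16, and those called lower between the ends, with a median of 0.60.

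The same order was seen at each stage. At the regions called higher the median position was 0.22 at puberty, 0.08 in adults and 0.33 in pregnancy, and at those called lower 0.57, 0.52 and 0.71, the last over the 19712 regions where the ends differed. It was also seen at left-out stages, where neither end of the line had taken part in the choice. At puberty, regions at least 4-fold higher at the other stages had a median ER- luminal minus basal log2 difference of 0.12, beside 2.13 for ER+ luminal minus basal. Regions at least 4-fold lower had -2.09 beside -3.32. In adults the values were -0.17 beside 2.68 and -2.03 beside -3.50, and in pregnancy 0.10 beside 1.02 and -1.21 beside -1.41. In the pregnancy libraries ER- and ER+ luminal cells thus had almost the same median gap to basal cells at these lower regions. Their median values there were 12.1 and 11.9, beside 33.0 in basal cells.

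Within each direction the ER- luminal libraries spread over the whole line and past its ends. Of the regions called higher, 5856 (33.1%) lay below 0 and 820 (4.63%) above 1. Among those called lower the numbers were 2047 (10.4%) and 2578 (13.1%). The outer classes given next include these regions, and the part of counting error in the spread was not tested. Of the regions called higher, 10381 (58.7%) had a position under 0.25, 5340 (30.2%) lay between 0.25 and 0.75, and 1978 (11.2%) lay above 0.75. These classes are cut on the same values as their medians. How near the ER- luminal medians of a class lie to either end is thus set by the choice. These 1978 regions, open in both luminal types, were the brighter ones, with ER- luminal medians of 83.9, 75 and 60.7 beside ER+ luminal medians of 90.4, 88.9 and 45.8. Their basal medians of 18.2, 23.7 and 26.4 were also above those of the other classes, and their median log2 difference between ER+ luminal and basal cells was 1.66, against 2.14 in the 10381. Of the regions called lower, 4394 (22.3%) had a position under 0.25, 8498 (43.1%) lay in the middle and 6825 (34.6%) lay above 0.75. The 4394 regions, near basal cells by their choice, had ER- luminal medians of 48.7, 54.2 and 50.1 beside basal medians of 40.4, 52.9 and 52.8. The 6825 were low in both luminal types at puberty and in adults, with ER- luminal medians of 4.30, 5.94 and 9.10 beside ER+ luminal medians of 3.16, 4.28 and 13.6. The last of these was near the median of all regions in that library, 17.0.

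Position is a share of the gap between basal and ER+ luminal cells, and its median followed the size of that gap at the regions called lower and not at those called higher. Among regions called lower, the share nearer to basal cells was 48.0% at a log2 difference of 1 to 2, 40.7% at 2 to 3, 29.6% at 3 to 4 and 19.3% in the 688 regions beyond 4. The median position there was 0.52, 0.61, 0.66 and 0.70 in the same order. Among regions called higher, the share nearer to basal cells was 68.7% at 1 to 2, 85.2% at 2 to 3, 90.3% at 3 to 4 and 83.3% in the 24 regions beyond 4, with median positions of 0.21, 0.13, 0.18 and 0.28. At the strict all-or-none regions ER- luminal cells had little signal in either direction. The 2 regions open in ER+ luminal cells had ER- luminal medians of 1.08, 1.86 and 1.52, and the 4 open in basal cells 1.79, 2.97 and 6.07. Of the 559 regions with up to 3 reads in each ER+ luminal library, 34 were likewise at or under 3 reads in each ER- luminal library and 24 had at least 10 reads in each. For the 210 regions with up to 3 reads in each basal library the numbers were 32 and 3. The shares of all regions at these limits were not counted.

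The share of regions called varied with brightness. Regions were split into deciles by their mean over the 6 libraries. In the dimmest decile, with a median of 28 reads summed over the libraries, 2.85% were called higher and 3.48% lower. The shares were highest in the eighth decile, at 28.2% and 23.5%. In the brightest decile, where the median standard error was the smallest at 0.25, 6.81% were called higher and 15.3% lower, and the median size of the difference, called or not, was 0.32. The brightest regions were thus the most alike in the 2 cell types, and their called differences leaned towards basal cells in the values as deposited. The 90th percentile of all values in basal and ER+ luminal cells was 126 and 139 at puberty. It was 140 and 125 in adults and 101 and 83.1 in pregnancy. The part of these ranges in the lean was not tested. The dimmest decile had a median size of 0.86 with a median standard error of 0.80, which holds counting error and the spread over stages together.

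**Figure D5:**
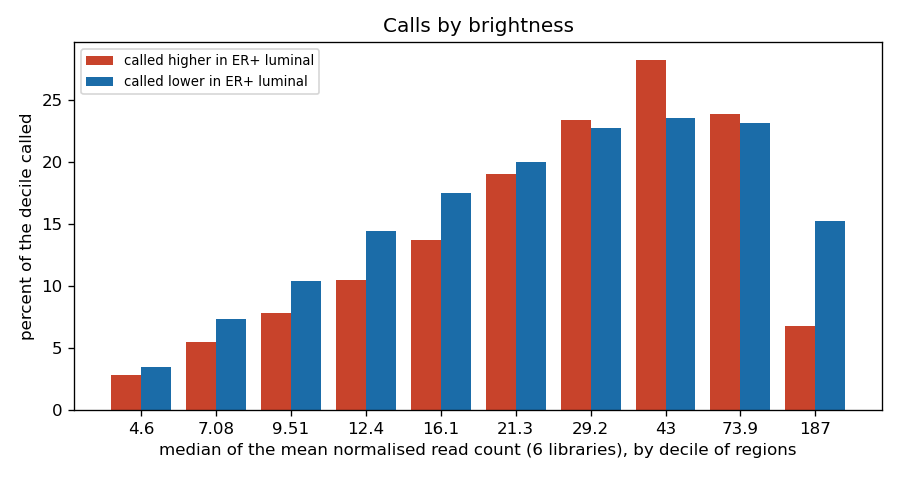
Percent of regions called higher and lower in ER+ luminal cells in each decile of all regions, ordered by mean normalised read count over the 6 libraries (x axis, median of each decile). The shares peak at 28.2% and 23.5% in the eighth decile and drop to 6.81% and 15.3% in the brightest.

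Called regions gathered along the running numbers. The region with the next number was called in the same direction for 22.3% of the regions called higher, against 14.2% of all regions, and for 29.3% of those called lower, against 15.8%. It was called in the opposite direction for 9.36% and 8.29%. Runs of 5 or more consecutive numbers called the same way held 372 regions called higher in 68 runs and 1346 called lower in 220 runs. The longest run had 8 regions called higher and 17 called lower. The sources used here do not say whether consecutive numbers are neighbours in the genome.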

How the data were processed

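ATAC-seq was read from 9 libraries, 1 for each cell type and stage; 6 entered the test. The submitters' processing notes list GRCm38 (mm10) as the build and name MACS2 2.1.0.20151222, Bowtie2 2.2.6, Picard and SAMtools. The sources used here do not give how peaks were merged, reads shifted or values normalised. The labels name total RNA as the molecule, while their protocols describe Tn5 tagging of nuclei. The deposited signal is 1 value per region and library, by the authors, for 124860 regions numbered up to 124862. Within 0.02 reads, 100% of values were whole multiples of 1 step per library, read as 1 read.

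Values were taken as log2(value + 1) and fitted with limma 3.58.1 in R 4.3.3, with cell type, stage as a block and a variance trend, adjusting over all regions with no filter. The pairs come from the stage in the titles. The fit was tested on simulated data. Alternatives were all 9 libraries, no stage block, pseudocounts of 0.25 and 4, at least 10 reads in 3 libraries, no variance trend, quantile normalization, equal depth, edgeR 4.0.16 and DESeq2 1.42.0 on recovered reads, and leaving out each stage.

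The first named region of each direction had the largest smallest-stage difference among called regions of 1 sign at the 3 stages with a mean in the higher type at or above 18.4, the median region mean. The second had no read in the lower type and the highest minimum in the other among called regions, with no limit on its mean. The comparison, lists and rules were chosen with earlier results of these data known. A count of 0 in 1 library allows up to 3 reads, or 1.58 to 6.60 units. Folds against a group with no read are given as the lower limit of their exact 95% counting interval. Intervals take in counting error alone and leave out the spread between libraries and stages. Copies made by PCR are not separate molecules, and any among the reads would make the intervals too narrow.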

Additional observations from a re-analysis of the deposited data

Results flagged for a closer look

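Some regions were at least 4-fold apart in opposite directions at 2 stages, which was not tested because each stage has 1 pair. There were 77 such regions between puberty and adults, 413 between puberty and pregnancy and 478 between adults and pregnancy. The 287 regions higher in ER+ luminal cells in adults and lower in pregnancy had medians of 17.1 and 0 in the ER+ luminal libraries and 1.58 and 11 in the basal ones. The 191 that went the other way had 0.855 and 11.9 in ER+ luminal and 12.6 and 0 in basal cells. One read is worth 1.70 units in the ER+ luminal and 2.2 in the basal pregnancy library, so these values rest on few reads.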

How the results depend on the processing

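Of 13 alternatives, 9 kept the number of regions called higher and 10 the number called lower within 1.5 times the reported one. Without a variance trend 10859 were called higher. Leaving out 1 stage gave 4224 to 32385 called higher and 7140 to 32021 called lower, the fewest without adults and the most without pregnancy. A pseudocount of 4 left 21875, 26992 and 5674 regions at least 4-fold apart at puberty, in adults and in pregnancy. All-or-none counts moved under all 8 alternatives. Regions open in ER+ luminal and in basal cells numbered 13 and 23 at 5 reads, 0 and 0 at 20 reads, 14 and 43 with 1 read allowed, 210 and 559 with 3 allowed, 0 and 8 at equal depth, and 12 to 41 and 16 to 337 with 1 stage left out. Without puberty more were open in ER+ luminal (23) than in basal cells (16). The medians at left-out stages and the ER- luminal positions moved by less than their spread over stages. The positions ranged from 0.13 to 0.24 for regions called higher and from 0.56 to 0.66 for those called lower. A library with no read allows up to 6.60 and 5.09 units in the basal and ER+ luminal pregnancy libraries, against 1.58 to 2.57 in the other 4.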
